A study of Homo sapiens with 6 samples.

Results

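PC3 cells given siRNA against NRP-2 were compared directly with PC3 cells given siRNA against VEGF-C, which sets depletion of a co-receptor against depletion of its ligand. The comparison used 4 of the 6 arrays of the series, 2 for each siRNA, chosen by the sample labels alone. PC3 is an established human line from a bone metastasis of prostate cancer. All cells grew in RPMI medium with 10% fetal bovine serum, were transfected with DharmaFECT reagent and were taken for total RNA 72 h later, so every group, the 2 arrays with scrambled siRNA included, carries the effects of transfection. The NRP-2 siRNA pool came from Santa Cruz Biotechnology and the VEGF-C siRNA pool from Dharmacon, per the labels' protocols, which name no source for the scrambled siRNA. Target and supplier therefore changed together, each target had a single pool, and effects of depletion, siRNA sequence and supplier cannot be told apart. The labels give 2 samples a group but not whether each was a culture of its own, so the p-values rest on a spread that may be purely technical. Arrays are called NRP-2 array 1 and 2, VEGF-C array 1 and 2 and scrambled array 1 and 2; their titles NRP1 and NRP2 are replicates and not the genes of those names.

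VEGF-C is a secreted growth factor best known for driving the growth of lymphatic vessels through the receptor tyrosine kinases VEGFR-3 and VEGFR-2. Neuropilin-2, encoded by NRP2, is a single-pass membrane protein without a kinase domain that binds VEGF-C and class 3 semaphorins and presents them to VEGF receptors or plexins. Tumour cells can make both ligand and co-receptor, and the title of the series places this axis beside autophagy, the delivery of cell contents to lysosomes for breakdown. Because the co-receptor has other ligands and the ligand has other receptors, the direct comparison asks which transcripts tell one depletion from the other.

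Values were deposited per probe set on the log2 scale, where a difference of 1 is a doubling. The array medians spanned 0.07. A gene was tested if one of its probe sets averaged log2 4 or more across arrays, which left 11131 of the 19775 genes with a probe set of their own. Of 16 markers of the line and of prostate epithelium with a probe set, 11 were past the filter. Among the bright ones were the epithelial genes EPCAM at a mean of log2 14.65, KRT19 at 14.17 and KRT18 at 13.92. KRT5 (1.82), SYP (1.99), FOLH1 (2.15), CHGA (2.35) and KLK2 were under the filter. None of the 9 leukocyte markers with a probe set passed that filter (the brightest, CD79A, had a mean of 3.78), nor did VWF (1.99) or CDH5 (2.40) of vessel lining or DCN (2.999) and LUM (3.21) of fibroblasts. Of the 12 fibroblast markers 4 were past the filter, the collagen genes COL1A1 (10.24), COL6A3 (9.66) and COL3A1 (7.996) and the actin gene ACTA2 (4.95), and of the 11 endothelial markers 3 were, PECAM1, KDR (5.09) and ROBO4 (4.797). Among targets of the androgen receptor, TMPRSS2 (8.51) and KLK3 (6.46) were past the filter and KLK2 (2.45) was not. PECAM1, an adhesion gene of endothelium and platelets, was above the filter in every array and highest in array 2 of the scrambled and NRP-2 groups (9.39 and 10.83 in the scrambled arrays, 9.17 and 9.35 in the VEGF-C arrays and 9.29 and 10.93 in the NRP-2 arrays). Over all tested genes the 2 arrays of a group differed by a median of 0.23 with NRP-2 siRNA, 0.18 with VEGF-C siRNA and 0.14 with scrambled siRNA, and the means of the NRP-2 and VEGF-C groups differed by a median of 0.22 in size.

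Each targeted transcript was at its lowest in the cells that received its own siRNA. VEGFC stood at 11.99 and 11.67 in the NRP-2 arrays, 8.46 and 7.27 in the VEGF-C arrays and 11.81 and 11.80 in the scrambled arrays. The NRP-2 arrays lay on either side of the scrambled arrays, and both VEGF-C arrays lay far below all of them. The difference of means, NRP-2 siRNA minus VEGF-C siRNA, was +3.97 (SE 0.39), a 15.6-fold higher level with NRP-2 siRNA, and the 2 VEGF-C arrays differed by more than 1 from each other. NRP2 stood at 3.41 and 2.81 in the NRP-2 arrays, 5.51 and 6.01 in the VEGF-C arrays and 4.77 and 4.92 in the scrambled arrays. The NRP-2 arrays were lowest, the VEGF-C arrays were highest, above both scrambled arrays, and the difference was -2.65 (SE 0.26). Both NRP-2 values lay under log2 4, the level of the filter. Among the 10 dimmer probe sets for this gene, none past the filter, the brightest gave -2.64 and the other 9 gave differences between -0.87 and -0.0064. Neither target was called by limma over all 11131 genes, each with an adjusted p of 0.098.

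The rest of the axis showed smaller differences. VEGFA, the ligand of VEGFR-1 and VEGFR-2, stood at 11.68 and 12.24 in the NRP-2 arrays against 12.60 and 12.52 in the VEGF-C arrays, a difference of -0.60 (SE 0.21) in which NRP-2 array 1 was the low value. The other neuropilin, NRP1, was bright in all arrays and stood at 13.94 and 14.51 in the NRP-2 arrays, 14.54 and 14.29 in the VEGF-C arrays and 14.69 and 14.89 in the scrambled arrays. Its groups overlapped and the difference was -0.19 (SE 0.23), or +0.092 without NRP-2 array 1, and its dimmer probe sets gave +0.13 and +0.045. PGF, a ligand of VEGFR-1, differed by +0.20 (SE 0.16). Of the 10 genes of VEGF ligands, receptors and neuropilins, 8 were measured, 1 was higher and 2 lower at an unadjusted p under 0.05 (VEGFC; NRP2 and VEGFA), and 0 were called over all genes.

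Among class 3 semaphorins, secreted guidance proteins that use neuropilins and plexins as receptors, levels differed in both directions. SEMA3E, which signals through plexin-D1, stood at 6.07 and 6.67 in the NRP-2 arrays against 4.802 and 5.08 in the VEGF-C arrays, with the scrambled arrays at 6.79 and 7.03, so that both VEGF-C arrays were the low ones (+1.43, SE 0.24). SEMA3A, the classical ligand of neuropilin-1, stood at 9.49 and 9.79 in the NRP-2 arrays, 10.59 and 10.34 in the VEGF-C arrays and 10.39 and 10.42 in the scrambled arrays, and here both NRP-2 arrays were the low ones (-0.82, SE 0.16). SEMA3F, the semaphorin with preference for neuropilin-2, stood at 12.84 and 12.96 in the NRP-2 arrays against 12.36 and 11.82 in the VEGF-C arrays (+0.81, SE 0.21), and PLXNB1, a plexin for semaphorin 4D, at 5.35 and 5.53 in the NRP-2 arrays against 4.53 and 4.54 in the VEGF-C arrays (+0.90, SE 0.18). No array of one group overlapped the other for these 4 genes. Over all tested genes, 24.1% were higher and 22.4% lower with NRP-2 siRNA without such overlap. Of 16 listed semaphorins and plexins, 11 were measured, 3 were higher and 1 lower at an unadjusted p under 0.05, and the median difference was +0.13.

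Over all genes, limma called 0 of 11131 at an adjusted p under 0.05 (0.0%), and the lowest adjusted p was 0.098, shared by 54 genes, 28 higher and 26 lower with NRP-2 siRNA. Without adjustment 2026 genes, 18.2% of those tested, had a p under 0.05, against 556.55 expected by chance; 1062 (9.54%) were higher and 964 (8.66%) lower. At least 2-fold and without overlap between the groups were 197 genes (1.77%) that were higher and 174 (1.56%) that were lower. Lack of overlap alone was common, with 2678 genes (24.1%) higher and 2497 (22.4%) lower. An exact two-sided permutation test of a single gene with 2 arrays against 2 cannot give a p below 0.333, so single genes rest on the spread that limma shares across genes. In the counts that follow, a gene is said to have passed where its unadjusted p in this fit was under 0.05, and the shares above are the background.

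The genes with the smallest p that were higher with NRP-2 siRNA were led by CREG2, a secreted glycoprotein, at 7.56 and 7.65 in the NRP-2 arrays, 5.46 and 5.20 in the VEGF-C arrays and 5.92 and 6.07 in the scrambled arrays (+2.27, SE 0.14). Both NRP-2 arrays were above the scrambled arrays and both VEGF-C arrays below them. SLC40A1, ferroportin, the only known exporter of iron from cells, stood at 6.77 and 6.75 in the NRP-2 arrays against 5.29 and 5.34 in the VEGF-C arrays, with the scrambled arrays at 6.40 and 6.52 (+1.45, SE 0.12). LCOR, a corepressor of nuclear receptors, stood at 9.68 and 9.52 in the NRP-2 arrays against 8.25 and 8.23 in the VEGF-C arrays, with the scrambled arrays at 9.41 and 9.63 (+1.36, SE 0.14). For SLC40A1 and LCOR the scrambled arrays lay close to the NRP-2 arrays, and the VEGF-C arrays stood apart. The 15 genes with the smallest p in this direction, not past the threshold over all genes, also held LDB3, a protein of the muscle Z-disc (+1.27), the mitochondrial carrier gene SFXN3 (+1.30), the small GTPase gene ARL15 (+1.14), LONRF2 (+1.45), SH2B1, an adaptor of insulin and leptin receptor signalling (+1.29), KLHL36 (+1.09), the snoRNA host gene SNHG18 (+0.94), ZMYM3 (+0.97), LMF1, which matures lipases in the endoplasmic reticulum (+1.26), CTNNBIP1, an inhibitor of beta-catenin (+0.96), GDPGP1 (+1.19) and VEGFC itself. A second probe set gave -0.16 for SFXN3 and -0.044 for ZMYM3.

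Genes with the smallest p that were lower with NRP-2 siRNA were led by TLNRD1, an actin-binding protein related to talin, at 6.97 and 7.12 in the NRP-2 arrays, 8.46 and 8.62 in the VEGF-C arrays and 8.32 and 8.10 in the scrambled arrays (-1.49, SE 0.15). Here the scrambled arrays lay near the VEGF-C arrays and the NRP-2 arrays stood apart. ELOVL7, an elongase of long-chain fatty acids, had the same order, at 7.17 and 7.36 in the NRP-2 arrays, 8.48 and 8.64 in the VEGF-C arrays and 8.58 and 8.80 in the scrambled arrays (-1.29, SE 0.15), as did COPS4, a subunit of the COP9 signalosome, at 10.16 and 10.41 in the NRP-2 arrays, 11.51 and 11.81 in the VEGF-C arrays and 11.74 and 11.76 in the scrambled arrays (-1.37, SE 0.16). AKR1C1, an aldo-keto reductase that inactivates progesterone and responds to NRF2, showed the opposite order, at 8.48 and 8.37 in the NRP-2 arrays, 9.51 and 9.74 in the VEGF-C arrays and 8.48 and 8.35 in the scrambled arrays (-1.19, SE 0.14). Between these patterns stood ITCH, a HECT ubiquitin ligase, where 9.67 and 9.83 in the NRP-2 arrays, 10.38 and 10.53 in the scrambled arrays and 10.93 and 10.88 in the VEGF-C arrays formed 3 separate levels (-1.15, SE 0.13). Some dimmer ITCH probe sets did not separate the scrambled from the VEGF-C arrays. The brightest of these gave 10.52 and 10.30 in the scrambled arrays and 10.46 and 10.47 in the VEGF-C arrays. The other members of these 15 were NRP2, the interferon-stimulated genes OASL, IFIT3, UBE2L6 and IFI16, the cholesterol transporter gene NPC1, OXNAD1 (-1.03), SINHCAF, a subunit of the SIN3 histone deacetylase complex (-0.98), the long noncoding RNA PARAIL (-2.29) and MXD1, a MAX partner that opposes MYC (-1.996). IFI16, a sensor of DNA in the nucleus, differed by -0.91, from 11.24 and 11.30 in the NRP-2 arrays against 12.18 and 12.17 in the VEGF-C arrays.

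**Figure D1:**
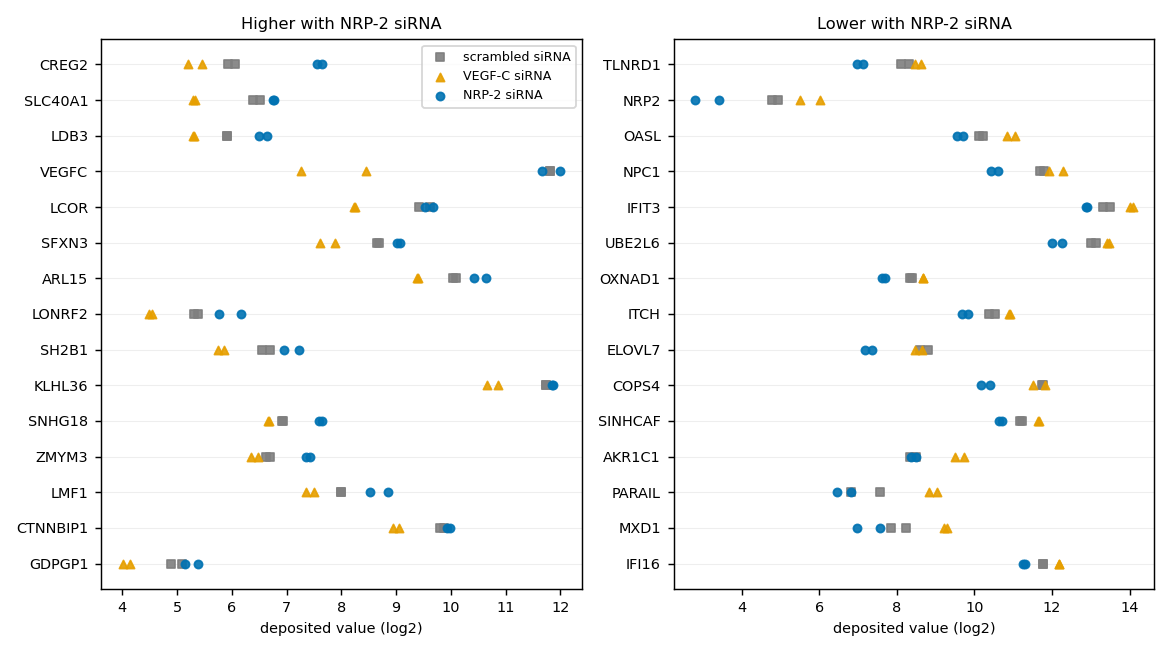
Deposited log2 values (horizontal axis) of the 15 genes with the smallest p in each direction, one row a gene, ordered by p from the top; points are single arrays, 2 for each of NRP-2 siRNA (circles), VEGF-C siRNA (triangles) and scrambled siRNA (squares). In every row the NRP-2 and VEGF-C arrays are apart, and the scrambled arrays lie near one group, near the other or between them.

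Size and p singled out the same genes only in part. The largest differences without overlap among the higher genes were VEGFC, MAP7D2, a microtubule-associated protein (+2.29), and CREG2 (+2.27). VEGFC and CREG2 were also among the 15 with the smallest p. Among the lower genes they were IL1RL1, the receptor of interleukin-33 (-3.98), KRTAP1-5, a keratin-associated protein (-3.76), PPBP, a platelet and neutrophil chemokine (-3.54), THBD, or thrombomodulin (-2.98), and INHBE, an inhibin subunit (-2.80). Dimmer probe sets of IL1RL1 gave -3.01 and -1.79. KRTAP1-5 was among the 54 genes that shared the lowest adjusted p. All but VEGFC and CREG2 were named after their values were seen. The means of PPBP with NRP-2 siRNA (3.85) and scrambled siRNA (3.88) and of THBD with NRP-2 siRNA (3.73) were below the filter of log2 4, so PPBP was tested only because of its VEGF-C arrays and the sizes of both differences rest on dim values. The NRP-2 arrays differed widely for IL1RL1 (5.12 and 7.73) and for INHBE (4.57 and 7.05), and the standard errors of these differences were 0.89 and 0.85. IL33, the ligand of IL1RL1, went the other way, at 12.02 and 12.56 in the NRP-2 arrays against 11.37 and 11.34 in the VEGF-C arrays (+0.94, SE 0.22).

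When genes were grouped by function, a few lists lay apart from the rest of the transcriptome, where the median difference of all tested genes was 0.02. The lowest medians belonged to regulators of the ATF4 stress response (-0.79), amino acid synthesis and transport (-0.68), inflammatory cytokines (-0.55), interferon-stimulated genes (-0.52) and tRNA synthetases (-0.41). Cholesterol synthesis (+0.48) and fatty acid synthesis (+0.37) had the highest. The lists were chosen with earlier results of these arrays known, and their medians and counts are descriptions with no test.

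**Figure D2:**
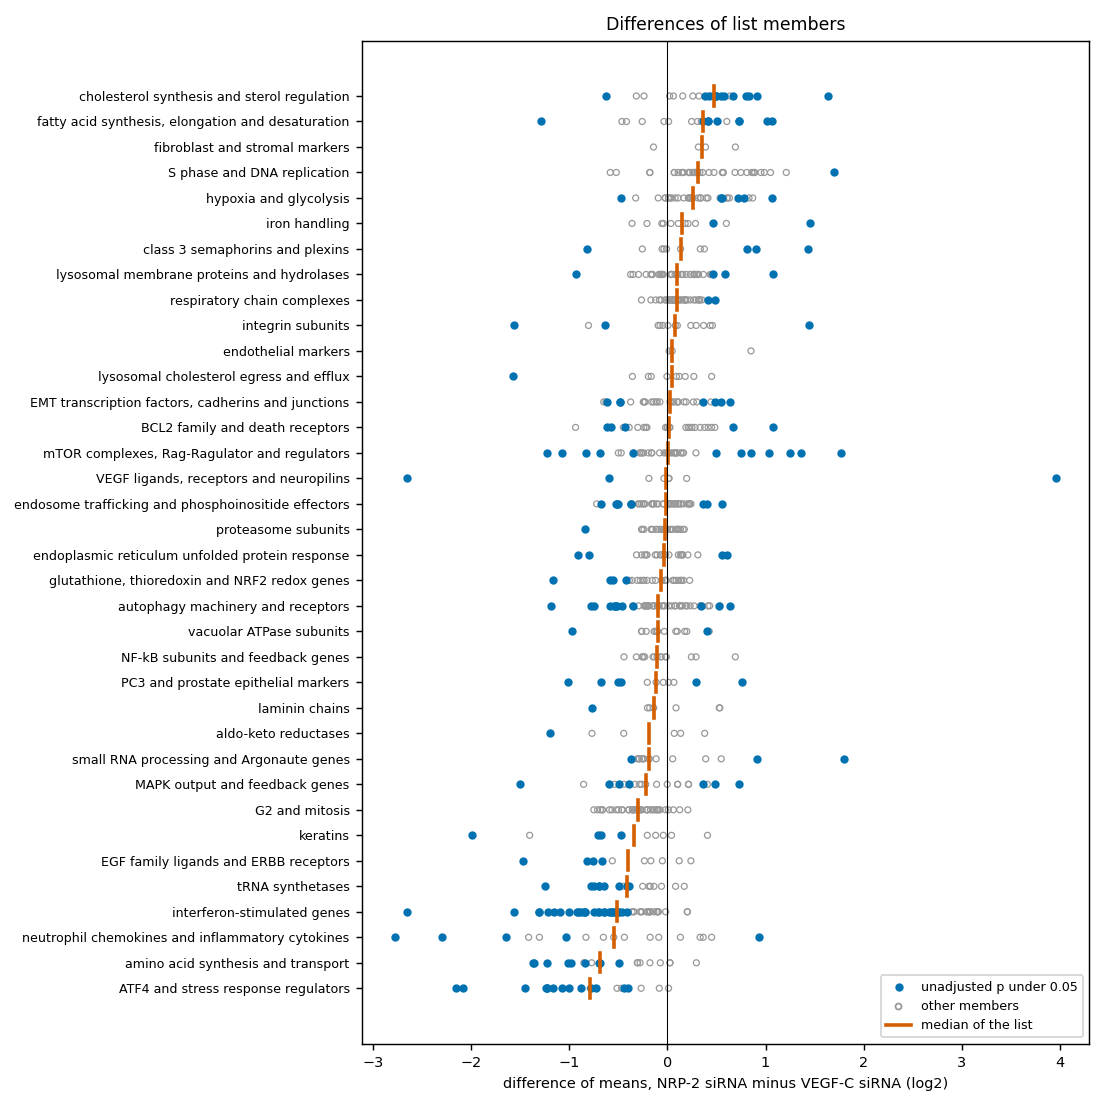
Differences of means, NRP-2 siRNA minus VEGF-C siRNA (log2, horizontal axis), of the measured members of each gene list, one row a list, ordered by the list median (vertical bar). Filled points are members with an unadjusted p under 0.05 and open points the others; the ATF4 list lies at the bottom with a median of -0.79 and the cholesterol list at the top with +0.48.

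Genes of the integrated stress response were lower with NRP-2 siRNA than with VEGF-C siRNA. In that response, a shortage of amino acids or stress in the endoplasmic reticulum leads to phosphorylation of the translation factor eIF2 alpha and to selective translation of ATF4, which switches on amino acid transporters, synthetic enzymes and tRNA synthetases. Of 23 regulators and targets, 22 were measured, 21 differences were below 0 (47.3% of all genes were), 14 (63.6%) passed as lower and 0 as higher, against 8.66% and 9.54% of all genes. At least 2-fold lower without overlap were 9 of the 22, against 1.56% of all genes. CTH, which makes cysteine from cystathionine, stood at 7.46 and 8.08 in the NRP-2 arrays, 9.73 and 10.13 in the VEGF-C arrays and 9.03 and 8.14 in the scrambled arrays (-2.16, SE 0.37). Both VEGF-C arrays were above both scrambled arrays, and the NRP-2 arrays were the lowest 2 of the 6. DDIT3, the pro-apoptotic factor CHOP, stood at 8.97 and 9.74 in the NRP-2 arrays against 10.46 and 10.74 in the VEGF-C arrays, with the scrambled arrays at 9.88 and 10.07 (-1.24, SE 0.28). PPP1R15A, the phosphatase subunit GADD34 that lifts the block on translation, stood at 7.07 and 7.27 in the NRP-2 arrays against 8.38 and 8.30 in the VEGF-C arrays, with the scrambled arrays at 7.79 and 7.39 (-1.17, SE 0.18). For both genes the groups were apart, and NRP-2 array 1 was the lowest array of all.

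Further members lay on the same side. GDF15, a secreted stress cytokine, stood at 13.36 and 13.88 in the NRP-2 arrays against 14.68 and 15.02 in the VEGF-C arrays (-1.23, SE 0.22; a dim second probe set gave -0.018), and SESN2, a leucine sensor that restrains mTORC1, at 6.93 and 6.98 in the NRP-2 arrays against 8.13 and 8.23 in the VEGF-C arrays (-1.23, SE 0.29). CHAC1, which degrades glutathione, differed by -0.78 (SE 0.17), the ATF4 partner gene CEBPG by -0.88 (SE 0.22) and SLC3A2, the heavy chain of amino acid exchangers, by -0.73 (SE 0.12). ATF4 mRNA itself differed by -0.40 (SE 0.16) and CBS, the enzyme before CTH, by -2.09 (SE 0.82), both named after their values were seen. VLDLR was the single measured member above 0 (+0.011, and below 0 with quantile normalization).

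Downstream classes of the same response lay on the same side. Of 20 tRNA synthetase genes, which charge tRNAs with amino acids in the cytosol, 17 were measured, 15 were below 0, 9 (52.9%) passed as lower and 0 as higher. WARS1, the enzyme for tryptophan, stood at 9.84 and 10.57 in the NRP-2 arrays against 11.37 and 11.53 in the VEGF-C arrays, with the scrambled arrays at 11.07 and 10.98 (-1.24, SE 0.25), and SARS1, the enzyme for serine, at 12.01 and 12.36 in the NRP-2 arrays against 12.96 and 12.92 in the VEGF-C arrays (-0.75, SE 0.16). No array of either pair overlapped the other, and the scrambled arrays of WARS1 lay between. GARS1 (-0.70), YARS1 (-0.78) and AARS1 (-0.70) were lower as well. Of 25 genes for amino acid synthesis and transport, 19 were measured, 16 were below 0, 9 (47.4%) passed as lower and 0 as higher. They were led by the transporters SLC43A1 (-1.37, SE 0.28), SLC1A4 (-1.36, SE 0.31) and SLC7A5 (-0.84, SE 0.20) and the mitochondrial folate enzymes SHMT2 (-0.98, SE 0.25) and MTHFD2 (-0.70, SE 0.18). PSAT1, of serine synthesis, stood at 12.17 and 13.20 in the NRP-2 arrays against 13.73 and 13.67 in the VEGF-C arrays, so that NRP-2 array 2 lay close to scrambled array 2 (13.54 and 13.28 in the scrambled arrays). Joined, the 3 lists held 58 measured genes, of which 52 were below 0, 32 passed as lower, 0 as higher and 14 were at least 2-fold lower without overlap.

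The size of this difference depended on NRP-2 array 1. With each gene centred on its mean over the 6 arrays, the ATF4 list averaged -0.72 and -0.19 in the NRP-2 arrays, +0.41 and +0.46 in the VEGF-C arrays and +0.099 and -0.063 in the scrambled arrays (1 and 2 of each). Without NRP-2 array 1 the median difference of the ATF4 list was -0.59, that of tRNA synthetases -0.25 and that of amino acid genes -0.31. Without NRP-2 array 2 they were -1.22, -0.55 and -0.89. The number of ATF4 list members that passed as lower was 13 and 19 in these fits, 8 without VEGF-C array 1 and 9 without VEGF-C array 2. Of the tRNA synthetases, 3 passed as lower without VEGF-C array 1, 5 without VEGF-C array 2 or without NRP-2 array 1 and 6 without either scrambled array, in place of 9. Of the amino acid genes, 5 did so without either VEGF-C array, in place of 9. NRP-2 array 1 also had the highest mean of S phase genes of the 6 arrays, and its part in the stress genes was not tested. The unfolded protein response of the endoplasmic reticulum, which shares inputs with ATF4, had a median of -0.036, and of 23 measured genes 2 passed as lower (6 without NRP-2 array 2) and 2 as higher (1 without VEGF-C array 1). Those lower were ERN1, the sensor IRE1 (-0.92, SE 0.17), and DNAJB9, a co-chaperone (-0.81, SE 0.17), and those higher were CALR (+0.56) and SDF2L1 (+0.60). HSPA5, the chaperone BiP, differed by -0.26 (SE 0.17).

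The element that ATF4 binds with C/EBP partners, TGATGNAA, was searched on both strands in the 250 bases before each gene start listed by RefSeq on GRCh38.p14. It was found for 5 of 21 ATF4 list genes with a listed start, 3 of 16 tRNA synthetases and 5 of 17 amino acid genes, against 3.89% of all 27305 genes with a listed start. CHAC1, ASNS and AARS1 are shown because each lies in a different one of these 3 lists and carries a match before its most upstream listed start; capitals mark the match. Strands and positions are chr15:40953221-40953470 (plus strand) for CHAC1, chr7:97872409-97872658 (minus strand) for ASNS and chr16:70289507-70289756 (minus strand) for AARS1, and every sequence reads 5′ to 3′ toward the start.
CHAC1: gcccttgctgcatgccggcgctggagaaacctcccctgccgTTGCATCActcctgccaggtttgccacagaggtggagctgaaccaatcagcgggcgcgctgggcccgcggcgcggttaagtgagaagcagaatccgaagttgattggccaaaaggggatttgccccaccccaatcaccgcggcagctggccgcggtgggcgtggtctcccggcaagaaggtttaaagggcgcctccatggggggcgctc
ASNS: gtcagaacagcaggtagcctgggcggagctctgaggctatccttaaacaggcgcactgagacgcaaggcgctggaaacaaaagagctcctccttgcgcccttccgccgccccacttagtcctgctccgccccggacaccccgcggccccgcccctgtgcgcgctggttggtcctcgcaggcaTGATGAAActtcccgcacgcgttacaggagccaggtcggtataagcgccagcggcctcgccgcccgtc
AARS1: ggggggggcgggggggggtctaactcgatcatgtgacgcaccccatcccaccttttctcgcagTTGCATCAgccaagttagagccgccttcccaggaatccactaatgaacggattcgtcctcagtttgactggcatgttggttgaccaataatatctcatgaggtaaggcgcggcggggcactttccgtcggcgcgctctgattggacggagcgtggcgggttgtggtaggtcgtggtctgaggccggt
The match begins 209 bases before the start in CHAC1, 68 in ASNS and 187 in AARS1. ASNS, asparagine synthetase, stood at 12.40 and 13.87 in the NRP-2 arrays, 14.37 and 14.35 in the VEGF-C arrays and 14.14 and 13.93 in the scrambled arrays (-1.22, SE 0.46), with NRP-2 array 1 lowest. Among the 20 ATF4 list genes that were measured and had a listed start, the median difference was -0.78 for the 4 with a match and -0.76 for the 16 without.

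**Figure D3:**
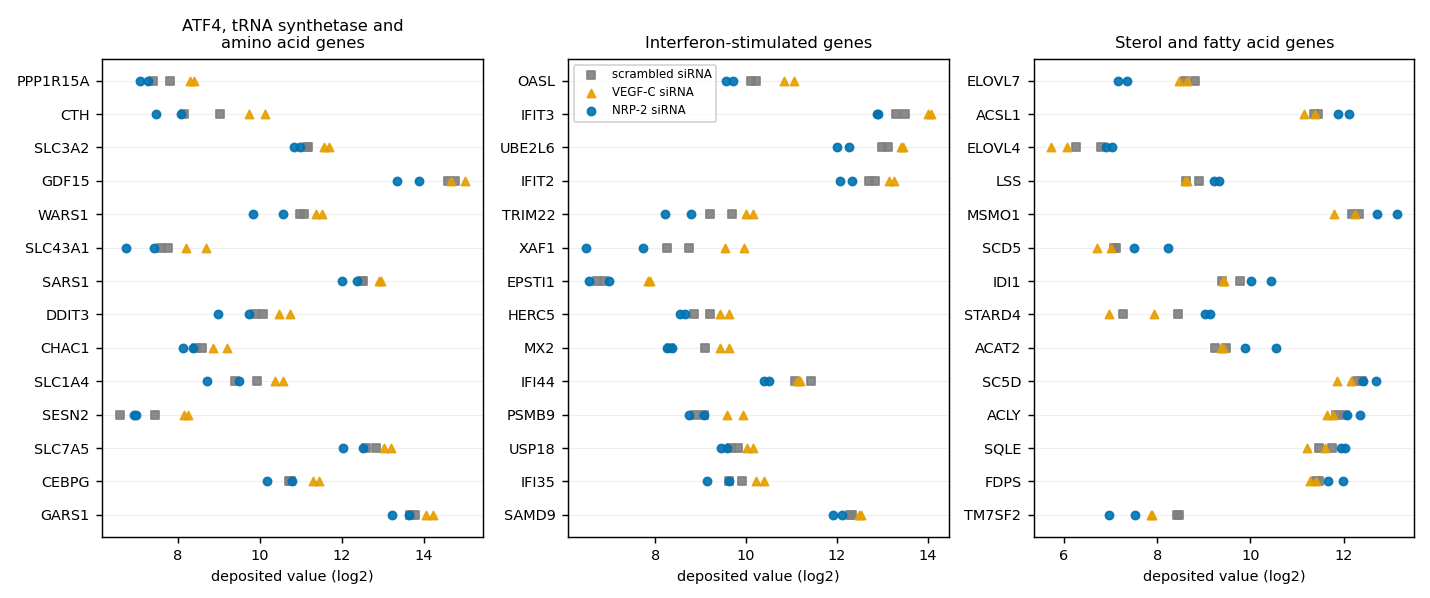
Deposited log2 values (horizontal axis) in single arrays for the 14 genes with the smallest p in the joined ATF4, tRNA synthetase and amino acid lists (left), the interferon-stimulated list (middle) and the joined sterol and fatty acid lists (right); circles are NRP-2 siRNA, triangles VEGF-C siRNA and squares scrambled siRNA. In the left and middle panels the triangles lie to the right of the circles in every row, and in the right panel the circles lie to the right in every row but those of ELOVL7 and TM7SF2.

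Interferon-stimulated genes were lower with NRP-2 siRNA than with VEGF-C siRNA as a broad group. Cells switch these genes on when interferons, or sensors of foreign RNA and DNA, activate STAT and IRF transcription factors, and their products block viral replication. Of 50 listed genes, 48 were measured, 46 were below 0, 28 (58.3%) passed as lower and 0 as higher, against 8.66% and 9.54% of all genes. OASL, an activator of the RNA sensor RIG-I, stood at 9.71 and 9.56 in the NRP-2 arrays, 11.05 and 10.84 in the VEGF-C arrays and 10.11 and 10.23 in the scrambled arrays. The NRP-2 arrays were the lowest and the VEGF-C arrays the highest, with the scrambled arrays between (-1.31, SE 0.14). IFIT3, which binds viral RNA with IFIT1, stood at 12.87 and 12.89 in the NRP-2 arrays, 14.08 and 13.997 in the VEGF-C arrays and 13.31 and 13.49 in the scrambled arrays (-1.15, SE 0.13), and IFIT2 at 12.07 and 12.32 in the NRP-2 arrays, 13.26 and 13.15 in the VEGF-C arrays and 12.70 and 12.83 in the scrambled arrays (-1.01, SE 0.14). UBE2L6, the conjugating enzyme for ISG15, stood at 11.99 and 12.26 in the NRP-2 arrays, 13.46 and 13.41 in the VEGF-C arrays and 12.99 and 13.13 in the scrambled arrays (-1.31, SE 0.14). In these 4 genes the 3 groups were separate and in the same order.

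XAF1, a pro-apoptotic antagonist of XIAP, had the largest difference of the list, -2.65 (SE 0.44), from 6.46 and 7.72 in the NRP-2 arrays against 9.54 and 9.95 in the VEGF-C arrays. Its scrambled arrays stood at 8.26 and 8.73, and the 2 NRP-2 arrays were more than 1 apart. TRIM22, an antiviral ubiquitin ligase, differed by -1.57 (SE 0.26), EPSTI1 by -1.09 (SE 0.18) and HERC5, the ligase that attaches ISG15, by -0.92 (SE 0.17). For EPSTI1 the scrambled arrays (6.70 and 6.88) lay with the NRP-2 arrays (6.99 and 6.54) and below the VEGF-C arrays (7.87 and 7.84). A dimmer probe set of EPSTI1 gave -0.23. The 20 members that did not pass included ISG15 (-0.097), IFI6 (-0.099) and OAS1 (+0.20, or -0.0013 over the mean of its probe sets), named after their values were seen. The list averaged -0.30 and -0.24 in the NRP-2 arrays, +0.36 and +0.26 in the VEGF-C arrays and -0.18 and +0.098 in the scrambled arrays (1 and 2 of each). Its median stayed between -0.64 and -0.42 with any 1 of the 6 arrays left out, while the number that passed as lower was 16 without VEGF-C array 1 and 17 without NRP-2 array 1.

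The response element of this family (GAAA, any 2 bases, then GAAAC) was found on either strand in the 250 bases before a start for 19 of 41 interferon list genes in the RefSeq table (GRCh38.p14), against 0.773% of all 27305 genes. Promoters of IFIT3, EPSTI1 and HERC5 are shown because these 3 were among the 8 members with the smallest p and carry a match, which capitals mark. They lie at chr10:89327747-89327996 (plus strand), chr13:42992242-42992491 (minus strand) and chr4:88456869-88457118 (plus strand).
IFIT3: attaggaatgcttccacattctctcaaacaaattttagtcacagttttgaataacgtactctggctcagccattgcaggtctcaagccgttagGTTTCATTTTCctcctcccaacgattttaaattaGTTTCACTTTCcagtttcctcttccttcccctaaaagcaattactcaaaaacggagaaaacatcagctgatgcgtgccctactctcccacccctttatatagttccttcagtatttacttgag
EPSTI1: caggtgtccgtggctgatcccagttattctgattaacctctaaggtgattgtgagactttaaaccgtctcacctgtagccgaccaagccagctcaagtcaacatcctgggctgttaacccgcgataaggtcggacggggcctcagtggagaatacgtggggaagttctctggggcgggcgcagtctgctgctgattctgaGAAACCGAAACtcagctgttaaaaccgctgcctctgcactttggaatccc
HERC5: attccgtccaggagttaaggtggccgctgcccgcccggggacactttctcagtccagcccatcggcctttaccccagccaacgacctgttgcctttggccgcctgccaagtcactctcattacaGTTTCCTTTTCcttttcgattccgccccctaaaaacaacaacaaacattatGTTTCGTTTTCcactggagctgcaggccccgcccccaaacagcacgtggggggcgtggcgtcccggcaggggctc
IFIT3 and HERC5 carry 2 matches each, beginning 157 and 123 bases before the start in IFIT3 and 126 and 75 in HERC5, and EPSTI1 carries 1, beginning 50 bases before it. All but that of EPSTI1 read on the opposite strand. Genes of the list with a match had a median difference of -0.36 (19 genes) and those with a listed start and no match -0.47 (21 genes).

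Lipid synthesis genes went the other way and were higher with NRP-2 siRNA. Cholesterol is made from acetyl-CoA through mevalonate, lanosterol and later sterols, under SREBP-2, which is activated when sterol in the endoplasmic reticulum is low. Of 30 listed genes, 23 were measured, 20 were above 0 (52.7% of all genes were), 12 (52.2%) passed as higher and 1 as lower, against 9.54% and 8.66% of all genes. The enzyme that closes the sterol rings, LSS, stood at 9.33 and 9.21 in the NRP-2 arrays, 8.59 and 8.63 in the VEGF-C arrays and 8.62 and 8.90 in the scrambled arrays (+0.67, SE 0.14). MSMO1, which removes methyl groups from sterols, stood at 13.15 and 12.71 in the NRP-2 arrays, 11.79 and 12.23 in the VEGF-C arrays and 12.18 and 12.34 in the scrambled arrays (+0.92, SE 0.22), and IDI1, of isoprenoid synthesis, at 10.45 and 10.02 in the NRP-2 arrays, 9.42 and 9.44 in the VEGF-C arrays and 9.38 and 9.78 in the scrambled arrays (+0.80, SE 0.21). In all 3 the NRP-2 arrays were the highest 2, and the scrambled arrays lay near or just above the VEGF-C arrays. STARD4, a cholesterol carrier of the cytosol, had the largest difference (+1.64, SE 0.47), from 9.14 and 9.03 in the NRP-2 arrays against 7.92 and 6.97 in the VEGF-C arrays. Scrambled array 1 was in the VEGF-C range for STARD4 and scrambled array 2 lay above it (7.27 and 8.44). ACAT2 (+0.83), SC5D (+0.55), SQLE (+0.57) and FDPS (+0.49) also passed as higher. The exception was TM7SF2, a sterol reductase named after its value was seen (-0.63, SE 0.20). The list median was +0.32 without NRP-2 array 1, where 4 genes passed as higher, 6 did so without VEGF-C array 1, 7 without VEGF-C array 2 and 8 without either scrambled array.

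NPC1, which moves cholesterol out of lysosomes, was lower with NRP-2 siRNA while these synthesis genes were higher. It stood at 10.43 and 10.62 in the NRP-2 arrays, 11.91 and 12.28 in the VEGF-C arrays and 11.79 and 11.70 in the scrambled arrays. The NRP-2 arrays stood apart from the other 4, and the difference was -1.57 (SE 0.17), a level 2.97-fold higher with VEGF-C siRNA. A second, dim probe set of NPC1 gave -0.011. Of the 10 measured genes of cholesterol egress and efflux NPC1 was the 1 that passed. The sterol-sensing nuclear receptor gene NR1H3 differed by -0.36 (SE 0.19) and the acid lipase gene LIPA by +0.45 (SE 0.26).

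Most fatty acid genes lay on the same side as the sterol genes. Of 24 listed, 19 were measured, 14 were above 0 and 5 below, 8 (42.1%) passed as higher and 1, ELOVL7, as lower. ACSL1, which activates long-chain fatty acids, stood at 12.10 and 11.89 in the NRP-2 arrays, 11.15 and 11.38 in the VEGF-C arrays and 11.37 and 11.45 in the scrambled arrays (+0.73, SE 0.15). The desaturase gene SCD5 stood at 8.22 and 7.504 in the NRP-2 arrays against 6.70 and 7.001 in the VEGF-C arrays (+1.01, SE 0.26) and the elongase gene ELOVL4 at 7.04 and 6.90 in the NRP-2 arrays against 5.73 and 6.07 in the VEGF-C arrays (+1.07, SE 0.23). No array overlapped in these 3. ACLY, which makes cytosolic acetyl-CoA (+0.50), ELOVL5 (+0.41), ELOVL2 (+0.73) and FADS2 (+0.37) passed as higher as well. Without NRP-2 array 1 or without VEGF-C array 1, 3 members passed as higher in place of 8, and without VEGF-C array 2 or either scrambled array, 5 did.

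**Figure D4:**
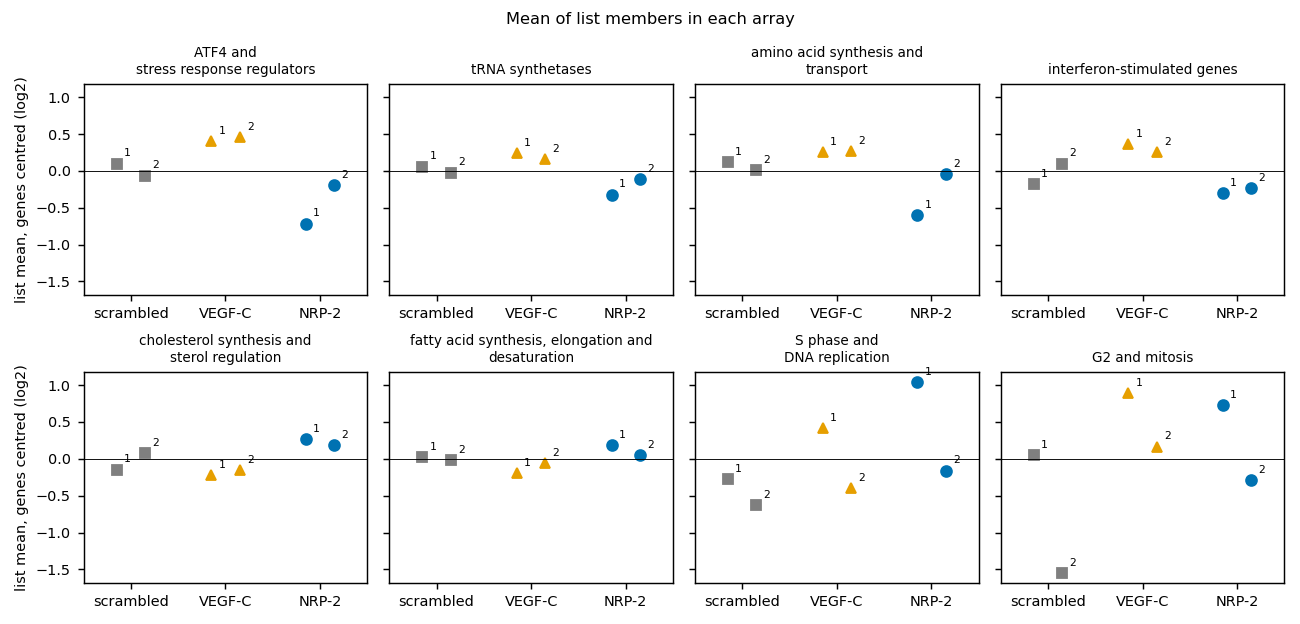
Mean over the measured members of 8 gene lists in each array (log2, each gene centred on its mean over the 6 arrays, vertical axis), by siRNA group (horizontal axis); the numbers beside points are the replicate numbers. The interferon, sterol and ATF4 panels separate VEGF-C from NRP-2 arrays, and the S phase and G2 panels separate the arrays of one group from each other.

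Mean levels of cell cycle genes differed more between the 2 NRP-2 arrays, and between the 2 VEGF-C arrays, than between the means of these groups. S phase and DNA replication genes averaged +1.04 and -0.16 in the NRP-2 arrays, +0.41 and -0.40 in the VEGF-C arrays and -0.27 and -0.63 in the scrambled arrays (1 and 2 of each). Of 39 measured, 35 were above 0 and 1 passed, CCNE2, a cyclin of the G1 to S transition, at 10.17 and 8.92 in the NRP-2 arrays against 8.70 and 7.002 in the VEGF-C arrays, with the scrambled arrays at 8.27 and 8.32 (+1.69, SE 0.65). The count that passed as higher was 16 without NRP-2 array 2, 5 without VEGF-C array 1, and 0 without NRP-2 array 1 or either scrambled array. PCNA, the clamp of replication forks, stood at 14.14 and 13.19 in the NRP-2 arrays against 13.16 and 12.66 in the VEGF-C arrays (+0.75, SE 0.34). G2 and mitosis genes averaged +0.73 and -0.29 in the NRP-2 arrays, +0.89 and +0.17 in the VEGF-C arrays and +0.051 and -1.55 in the scrambled arrays (1 and 2 of each), and 0 of 41 measured passed in either direction, with TPX2 at -0.71, CENPA at -0.68 and UBE2C at -0.57. Between arrays of the same replicate number, the S phase means were higher and the G2 means lower with NRP-2 siRNA for both numbers, and with the number as a block 9 S phase genes passed as higher, 1 as lower, and 3 G2 genes as lower. The labels do not say what the numbers mark. The median difference turned from -0.30 to +0.16 without NRP-2 array 2 for G2 genes, and from +0.31 to -0.15 without NRP-2 array 1 for S phase genes.

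Inflammatory genes were mostly higher with VEGF-C siRNA, with a spread between the NRP-2 arrays that the scrambled arrays shared in direction. The list averaged +0.30 and -0.59 in the NRP-2 arrays, +0.38 and +0.63 in the VEGF-C arrays and -0.12 and -0.61 in the scrambled arrays (1 and 2 of each). Of 26 chemokines and cytokines, 17 were measured and 12 were below 0 (47.3% of all genes were). With NRP-2 siRNA 4 (23.5%) passed as lower and 1 (5.88%), IL33, as higher, against 8.66% and 9.54% of all genes. At least 2-fold lower without overlap were 6 of the 17, against 1.56% of all genes. CXCL5, a chemokine for neutrophils, stood at 9.99 and 8.79 in the NRP-2 arrays, 12.02 and 12.31 in the VEGF-C arrays and 10.66 and 9.29 in the scrambled arrays (-2.78, SE 0.57). CXCL3 stood at 9.84 and 8.03 in the NRP-2 arrays, 11.23 and 11.26 in the VEGF-C arrays and 9.13 and 8.16 in the scrambled arrays (-2.30, SE 0.63) and CCL20, which attracts dendritic and T helper cells, at 6.45 and 5.50 in the NRP-2 arrays against 7.29 and 7.96 in the VEGF-C arrays (-1.65, SE 0.43). In CXCL3 and CCL20 both VEGF-C arrays were above the other 4, and NRP-2 array 1 was above NRP-2 array 2. IL6 had the same pattern (9.91 and 7.87 against 10.15 and 10.24) and did not pass (-1.31, SE 0.74). TNFSF15, a TNF-family cytokine, differed by -1.04 (SE 0.35), resting on VEGF-C array 2 (10.01 and 11.04). Among 15 measured NF-kB subunits and feedback genes limma's unadjusted p was under 0.05 for 0 in either direction. Without NRP-2 array 2 the median of the cytokine list was -0.15 with 3 passed as lower, without NRP-2 array 1 -1.05 with 8, and without VEGF-C array 2 -0.33 with 1.

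Keratins and growth factor genes of the EGF family lay on the same side. Beside the counts below, 8.66% of all genes passed as lower and 9.54% as higher. KRT16, a keratin of stressed and wounded epithelium, stood at 6.01 and 5.87 in the NRP-2 arrays, 8.13 and 7.74 in the VEGF-C arrays and 6.36 and 5.75 in the scrambled arrays (-1.996, SE 0.25), with the VEGF-C arrays apart from the other 4. KRT75 differed by -0.71 (SE 0.13), from 7.95 and 8.003 in the NRP-2 arrays, 8.78 and 8.58 in the VEGF-C arrays and 7.31 and 7.20 in the scrambled arrays. KRT8 (-0.47) and KRT7 (-0.68) were lower by less. Of 10 measured keratins 4 passed as lower and 0 as higher, and 2 passed as lower without VEGF-C array 1 or either scrambled array. Of 10 measured EGF family genes, 4 passed as lower and 0 as higher: EGFR (-0.82, SE 0.18), the ligands HBEGF (-1.47, SE 0.33) and EGF (-0.76, SE 0.18), and ERRFI1, a feedback inhibitor of EGFR (-0.67, SE 0.13). EGFR stood at 11.51 and 11.50 in the NRP-2 arrays, 12.55 and 12.10 in the VEGF-C arrays and 11.77 and 11.89 in the scrambled arrays, so that the VEGF-C arrays were the high ones and the NRP-2 arrays just under the scrambled arrays. HBEGF stood at 9.71 and 9.07 in the NRP-2 arrays against 10.79 and 10.94 in the VEGF-C arrays. Without NRP-2 array 1 the median of the EGF family list was -0.0012, against -0.40 in the full fit, and 4 members still passed as lower. Outputs of MAP kinase signalling were split, with 3 of 23 passed as higher (1 without VEGF-C array 2 or NRP-2 array 2) and 4 as lower. The phosphatase gene DUSP5 was lower (-1.51, SE 0.29), while DUSP6 (+0.48, SE 0.14), SPRY4 (+0.73, SE 0.21) and SPRY2 (+0.36, SE 0.11), all feedback inhibitors of the pathway, were higher.

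Autophagy genes as a list had a median near that of all genes, while more members passed as lower with NRP-2 siRNA than as higher. Of 55 genes, 53 were measured, 10 (18.9%) passed as lower with NRP-2 siRNA and 3 (5.66%) as higher (1 without NRP-2 array 1 or either scrambled array), against 8.66% and 9.54% of all genes, and the median difference was -0.092. ATG13, a subunit of the ULK1 complex that starts autophagosomes, stood at 7.67 and 8.31 in the NRP-2 arrays, 9.40 and 8.95 in the VEGF-C arrays and 9.43 and 9.27 in the scrambled arrays (-1.19, SE 0.27), with both NRP-2 arrays below the other 4. Dimmer probe sets of ATG13 gave -0.37 and -0.27. The LC3 family genes MAP1LC3B (12.23 and 12.20 in the NRP-2 arrays against 12.72 and 12.80 in the VEGF-C arrays; -0.54, SE 0.13) and GABARAPL1 (7.96 and 8.06 in the NRP-2 arrays against 8.56 and 8.97 in the VEGF-C arrays; -0.75, SE 0.21), whose proteins coat the autophagosome, were lower with NRP-2 siRNA. Among receptors that tether cargo, SQSTM1, or p62, differed by -0.46 (SE 0.13), with +0.025 and -0.29 for its 2 dimmer probe sets, and CALCOCO2 by -0.52 (SE 0.12). PIK3R4, a scaffold of the class III PI3 kinase, differed by -0.51 (SE 0.14), and EPG5, a tether for lysosome fusion, stood at 9.23 and 8.86 in the NRP-2 arrays, 9.71 and 9.55 in the VEGF-C arrays and 8.56 and 8.39 in the scrambled arrays (-0.59, SE 0.17). TECPR1, which acts at autophagosome and lysosome membranes, was the one of the 8 named members on the other side (9.74 and 9.74 in the NRP-2 arrays, 9.07 and 9.13 in the VEGF-C arrays; +0.64, SE 0.11).

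LAMP2 and WDFY1, a lysosomal membrane glycoprotein and an endosomal protein that binds phosphatidylinositol 3-phosphate, were higher with both siRNAs than in the scrambled arrays for the probe sets used. LAMP2 stood at 13.996 and 13.78 in the NRP-2 arrays, 13.32 and 13.54 in the VEGF-C arrays and 12.20 and 12.58 in the scrambled arrays for its brightest probe set (+0.45, SE 0.18). Its other probe sets gave -0.0066, +0.062 and +1.87, so the last of them separated the siRNAs and the other 2 did not. In none of these did both VEGF-C arrays lie above both scrambled arrays. The higher LAMP2 level with both siRNAs than in the scrambled arrays therefore rests on the brightest probe set. WDFY1 stood at 12.04 and 11.83 in the NRP-2 arrays, 11.84 and 11.59 in the VEGF-C arrays and 10.10 and 10.43 in the scrambled arrays (+0.22, SE 0.18), and a second probe set gave -0.0037. Of 42 measured lysosomal genes 3 passed as higher (5 without VEGF-C array 2 or NRP-2 array 2) and 1 as lower (2 without NRP-2 array 1 and 3 without NRP-2 array 2). The lysosomal shares were 7.14% as higher and 2.38% as lower, against 9.54% and 8.66% of all genes. OSTM1, a partner of the chloride exchanger CLC-7, stood at 10.74 and 10.47 in the NRP-2 arrays, 9.44 and 9.61 in the VEGF-C arrays and 9.57 and 9.74 in the scrambled arrays (+1.08, SE 0.16), with the NRP-2 arrays apart. LAMP3, an interferon-responsive lysosomal glycoprotein, was on the other side (-0.93, SE 0.20). The ceramidase gene ASAH1 (+0.47, SE 0.12) and the fucosidase gene FUCA1 (+0.59, SE 0.17) were higher with NRP-2 siRNA. Of 15 measured subunits of the vacuolar ATPase, which acidifies lysosomes, 1 passed in each direction: ATP6V0A2 (-0.98, SE 0.17, but +1.14 for another probe set) and ATP6V1A (+0.41, SE 0.16), with 0 as higher without VEGF-C array 2, NRP-2 array 1 or either scrambled array and 2 as lower without VEGF-C array 1. Endosome and phosphoinositide genes had a median of -0.018, with 3 of 44 passed as higher (1 without VEGF-C array 2 or NRP-2 array 1) and 6 as lower, among them the adaptor gene STAM2 (-0.68, SE 0.16; other probe sets +0.13 and +0.072), RAB5A of early endosomes (-0.52, SE 0.14) and, on the other side, the phosphatase gene FIG4 (+0.55, SE 0.15).

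Genes around mTORC1, the kinase complex that senses amino acids at the lysosome and restrains autophagy, were split by member rather than shifted. Over all genes 9.54% passed as higher and 8.66% as lower. At least 2-fold apart without overlap were 1.77% as higher and 1.56% as lower. Of 38 measured, 7 (18.4%) passed as higher and 5 (13.2%) as lower (2 without VEGF-C array 2 and 3 without VEGF-C array 1), 6 genes were at least 2-fold apart without overlap, and the median was +0.0054. The 3 sestrins, which restrain mTORC1, were divided: SESN1 stood at 7.56 and 7.28 in the NRP-2 arrays against 6.52 and 6.24 in the VEGF-C arrays (+1.04, SE 0.23) and SESN3 at 5.87 and 5.50 in the NRP-2 arrays against 4.46 and 4.40 in the VEGF-C arrays (+1.25, SE 0.20), both higher with NRP-2 siRNA, while SESN2, given above with the ATF4 targets, was lower. The translation repressor genes were divided as well, with EIF4EBP2 at 11.24 and 11.23 in the NRP-2 arrays against 10.20 and 8.73 in the VEGF-C arrays (+1.77, SE 0.46) and EIF4EBP1 at 10.91 and 11.77 in the NRP-2 arrays against 12.43 and 12.41 in the VEGF-C arrays (-1.08, SE 0.29). FNIP2, a partner of folliculin, stood at 10.04 and 9.91 in the NRP-2 arrays, 8.63 and 8.59 in the VEGF-C arrays and 9.09 and 9.64 in the scrambled arrays (+1.37, SE 0.20). The Ragulator subunit gene LAMTOR4 was higher (11.32 and 11.09 in the NRP-2 arrays, 10.32 and 10.39 in the VEGF-C arrays; +0.85, SE 0.13) and RRAGD, one of the Rag GTPases held by Ragulator, was lower (6.75 and 6.68 in the NRP-2 arrays, 7.41 and 7.70 in the VEGF-C arrays; -0.83, SE 0.14).

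Adhesion genes gave single large differences. Of all tested genes, 9.54% passed as higher and 8.66% as lower, against 6.67% and 13.3% of integrins and 13.8% and 10.3% of the junction and mesenchymal list. ITGA2, the alpha chain of a collagen receptor, stood at 11.60 and 12.19 in the NRP-2 arrays, 13.55 and 13.36 in the VEGF-C arrays and 13.64 and 13.59 in the scrambled arrays (-1.56, SE 0.22), and ITGA1, the alpha chain of another collagen receptor, at 7.84 and 7.83 in the NRP-2 arrays, 6.68 and 6.10 in the VEGF-C arrays and 7.41 and 7.23 in the scrambled arrays (+1.44, SE 0.21; a dim second probe set +0.29). The NRP-2 arrays were the low ones for ITGA2 and the VEGF-C arrays for ITGA1, so these integrins had opposite orders. ITGA3, of a laminin receptor, was lower with NRP-2 siRNA (-0.64, SE 0.17). Of 15 measured integrins 1 passed as higher (2 without VEGF-C array 2 or NRP-2 array 1) and 2 as lower (1 without VEGF-C array 1). Among 7 measured laminin chains LAMB3, of laminin-332, passed (-0.77, SE 0.19), and LAMC1 did not (+0.53, SE 0.25, with -0.36 for a second probe set). In the list of junction and mesenchymal genes 4 of 29 passed as higher and 3 as lower (1 and 4 without VEGF-C array 2, 2 and 5 without NRP-2 array 2, 2 and 2 without NRP-2 array 1, 5 and 1 without VEGF-C array 1), among them fibronectin, FN1 (-0.62, SE 0.15), TWIST1 (+0.48, SE 0.13) and the tight junction genes TJP1 (-0.49, SE 0.15) and TJP3 (+0.55, SE 0.15).

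In other pathways few members passed. The shares over all genes were 9.54% as higher and 8.66% as lower. DICER1, the nuclease that makes microRNAs and small interfering RNAs, stood at 10.42 and 10.42 in the NRP-2 arrays, 8.13 and 9.10 in the VEGF-C arrays and 10.50 and 10.69 in the scrambled arrays (+1.80, SE 0.32), low in both VEGF-C arrays. The Argonaute gene AGO3 differed by +0.91 (-0.24 for another probe set), AGO2 by -0.25 (SE 0.15), and 12 of 15 genes of small RNA processing did not pass. In iron handling 2 of 12 passed, SLC40A1 and the ferrireductase gene STEAP3 (+0.47, SE 0.16; another probe set -0.27). Death regulators were mixed, with 2 of 27 measured (7.41%) passed as higher and 3 (11.1%) as lower. APAF1, the core of the apoptosome (+1.08, SE 0.31), and BCL2L11, or BIM (+0.66, SE 0.19; other probe sets -0.0084 and -0.20), were higher. CASP8 (-0.62, SE 0.13), BCL2L1, or BCL-xL (-0.58, SE 0.14), and HRK (-0.43, SE 0.12) were lower. Without NRP-2 array 1, 1 of these regulators passed as higher and 6 as lower, and without NRP-2 array 2, 4 and 4. Redox genes passed as lower in 4 of 27 (in 2 without either VEGF-C or either scrambled array), TXNRD1 (-0.55, SE 0.12), GCLC (-0.58, SE 0.15), SRXN1 (-0.42, SE 0.16) and GSR (-1.17, SE 0.42), and as higher in 0. Beside AKR1C1, its near-identical relative AKR1C2 differed by -0.45 (SE 0.20), and probes of such close copies may share signal. Hypoxia and glycolysis genes lay mostly on the higher side, with 29 of 34 above 0 (52.7% of all genes were). Without overlap 21 of them were higher and 2 lower, against 24.1% and 22.4% of all genes. Their median was +0.26, and +0.24 to +0.36 with any 1 array left out. As higher 5 passed, led by the enolase gene ENO2 (+1.07, SE 0.25), and 1, ADM (-0.47, SE 0.15), passed as lower. Of 27 proteasome subunits PSMB5, a catalytic subunit, passed as lower (11.61 and 11.62 in the NRP-2 arrays, 12.41 and 12.51 in the VEGF-C arrays, 12.44 and 12.35 in the scrambled arrays; -0.85, SE 0.12), and of 38 respiratory chain subunits NDUFB6 (+0.48, SE 0.16) and SDHA (+0.42, SE 0.14) passed as higher, with 0 without VEGF-C array 2, NRP-2 array 1 or either scrambled array, 1 without VEGF-C array 1 and 6 without NRP-2 array 2.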

How the data were processed

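Total RNA of PC3 cells was measured on 6 Affymetrix arrays of the HG-U133 Plus 2.0 design, 2 a group. The deposited log2 values cover 54675 probe sets and were made with GCRMA in Partek, per the submitters' processing notes; the sources used here give no versions. GCRMA shares background and quantile steps across arrays and compresses dim values. Of the probe sets, 41091 had a single gene symbol in the platform annotation, 1801 had several and 11721 had none; the last 2 kinds and 62 controls were left out. The brightest probe set on average stood for a gene, and genes with a mean under log2 4 were left out. limma 3.58.1 (R 4.3.3; lmFit, eBayes, two-sided, Benjamini-Hochberg over 11131 genes) was fitted to all 6 arrays with 3 residual degrees of freedom, and checked on simulated data. Named genes are VEGFC, NRP2, NRP1, LAMP2, WDFY1, the 15 with the smallest p in each direction and up to 8 a list with the smallest p; others are said to be named after their values were seen, which holds for ASNS and VLDLR too. Members and lists were chosen with earlier results of these data known. Of 968 list genes 782 were tested, 108 were under the filter and 78 had no probe set of their own symbol. The number of arrays limits the precision. Alternatives were other filters, probe set means, scalings, the 4 arrays alone, a replicate block, another eBayes setting and leaving out each array.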

Additional observations from a re-analysis of the deposited data

How the results depend on the processing

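With no low-value filter 1 gene was called, NWD2, a gene under the filter (-2.23, SE 0.06, limma adjusted p 0.0374; 2.58 in both NRP-2 arrays, 4.75 and 4.87 in the VEGF-C arrays), and under the other alternatives 0 were, with lowest adjusted p-values between 0.0660 and 0.289 and 1491 to 2396 genes at an unadjusted p under 0.05. With each array left out in turn, the called genes stayed at 0, genes at an unadjusted p under 0.05 ranged from 788 to 1218 higher and 674 to 1178 lower, and genes at least 2-fold apart without overlap from 197 to 365 higher and 174 to 318 lower; a group left with 1 array is assumed to vary like the other groups and overlaps them less easily. The highest counts of 2-fold genes came without NRP-2 array 2, and 345 were higher without VEGF-C array 1. Most genes with differences given were chosen for a small p in the full fit, so agreement in direction was largely built in. The 4 arrays alone, the replicate block, the other eBayes setting and leaving out a scrambled array cannot change a difference of means. Direction was the same as in the full fit for 171 of the 175 genes with differences given, under every alternative run that kept the gene. The exceptions were ATP6V0A2 (+0.082 over the mean of its probe sets), OAS1 (-0.00135 in the same setting), VLDLR (-2.92e-05 with quantile normalization, and -0.073 to +0.095 with single arrays left out) and NRP1 (-0.47 to +0.092 with single arrays left out); none of the 4 was called. Without the filter the keratin median was -0.043 over 15 genes in place of 10, and the amino acid median -0.44 over 23 in place of 19. Genes past the filter keep the same difference without it, so these medians moved only through the added dim genes.

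The replicate numbers were fitted as a block. It called 0 genes and gave 1216 higher and 1053 lower at an unadjusted p under 0.05. Over 11131 genes the differences between array 1 and array 2 correlated at 0.11 between the scrambled and VEGF-C groups, 0.58 between scrambled and NRP-2 and 0.12 between VEGF-C and NRP-2. The labels do not say that a number marks a shared day or culture, so the samples are taken to share only a number. The block changed no call.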
